A study of Mus musculus with 9 samples.

Results

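The genes examined were 44 genes of amino acid sensing, mTORC1 and autophagy, and their messenger RNA was followed in the liver of mice that were fed a high-protein (HP) or a normal-protein (NP) diet. They were taken from a list by gene symbol. A probe set counted for a gene when it named that symbol alone, and the probe set with the highest mean over all pools was used where a gene had several. A value was obtained for 43 of the 44 genes, out of 19938 genes measured in the same way. The exception was Rps6kb1, the S6 kinase that mTORC1 phosphorylates, which was not analysed here because no probe set names it alone.

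The study asked how dietary protein acts on the liver under low-fat (LF) and high-fat (HF) feeding. Male C57BL/6J mice received 1 of 4 diets, LF-NP, HF-NP, LF-HP or HF-HP, for 1 or 12 weeks, and a reference group was killed at week 0 after the LF-NP run-in. Fat supplied 10 or 35% of the energy and protein 15 or 50%, so that carbohydrate supplied 75% in the LF-NP, 40% in the LF-HP, 50% in the HF-NP and 15% in the HF-HP diet. A difference between HP and NP diets is therefore also a difference in carbohydrate, and both cannot be told apart. Mice were 12 weeks old at week 0, 13 weeks after 1 week and, by the labels, 22 weeks after 12 weeks of diet. They were killed 2 h after a meal of fixed size. Liver RNA of 5 mice was pooled per group, and each of the 9 pools was measured on 1 Affymetrix Mouse Gene 1.0 ST array, so the differences between single mice are not visible. The deposited values are on a log2 scale, on which a difference of 1 is a doubling.

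mTORC1 is a protein kinase complex that promotes protein synthesis and restrains autophagy when amino acids, growth factors and energy are sufficient. Amino acids bring it to the lysosome surface through the Rag GTPases and their Ragulator anchor, where Rheb switches it on. GATOR1 and the TSC complex oppose these steps, and the folliculin complex promotes the Rag C and D step. In the liver, autophagy recycles protein, fat and organelles between meals, starting with the ULK1 kinase complex and ending in the lysosome, and the transcription factor TFEB raises genes of both. Most of this control acts on protein localisation and phosphorylation, which an RNA array does not read.

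The array values varied little between pools. Medians of the 9 arrays over the genes measured differed by at most 0.064. Correlations between arrays over all 35556 probe sets ran from 0.988 to 0.993. The tissue label was borne out by the hepatocyte genes Alb and Apoa1, at means of 13.9 and 13.7 on a scale that ended at 14.46, whereas the adipocyte gene Adipoq and the B cell gene Ms4a1 lay near the bottom at 3.3. The log2 of the summed signal of 5 hepatocyte markers was 15.90 to 16.03 in the HP pools and 15.88 to 15.98 in the NP pools. For 6 Kupffer cell markers these ranges were 10.32 to 11.12 and 10.69 to 11.19, and for 3 lymphocyte markers 6.39 to 6.62 and 6.60 to 6.77. The ranges of the HP and NP pools overlapped for these 3 marker lists. Matched by fat level and week, the HP pool minus the NP pool was -0.44 on LF and 0.36 on HF after 1 week and -0.54 and -0.07 after 12 weeks for the Kupffer cell markers. The summed lymphocyte signal was lower in the HP pool in all 4 matches, with differences of -0.21, -0.02, -0.20 and -0.08 in the same order. Of its 3 genes only Cd3e, the one with the highest signal, was lower in each match. Cd8a and Ms4a1 were equal or higher in the HP pool in all 4. The part of these shifts in the results was not tested. In pooled tissue, fewer cells of a type and less RNA per cell cannot be told apart.

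Between HP and NP feeding, 1 of the 43 genes, Fnip2, passed the test, with less mRNA in the HP pools, and none was higher beyond the threshold. The test was limma on the 8 diet pools with protein, fat and week as terms and Benjamini-Hochberg adjustment over 19938 genes at 0.05. Over all genes tested, 0.271% fell and 0.171% rose by this rule. At an unadjusted p under 0.05, 6 members were lower and 1 was higher in the HP pools, against 5.66% and 4.59% of all genes, and both together were 16.3% of the members against 10.3% of all genes. This count of 7 was 4 without the LF-NP pool or without the HF-NP pool of week 1, and 5 to 8 without any other 1 pool. With arrays centred on their median it was 5. Of the 43 members, 41 lay above the median level of all genes, so the shares of all genes, here and below, come from a set with lower signal. The 7 members were Fnip2, Ulk1, Ulk2, Sqstm1, Deptor and Atg5 on the lower side and Atg16l1 on the higher side. In 4 members, Fnip2, Ulk1, Ulk2 and Deptor, the 4 HP pools lay wholly below the 4 NP pools, or 9.3% of the members, while 2.91% of all genes did so. No member lay wholly above, against 1.88% of all genes. The module as a whole was not displaced, since 22 members had a difference above 0 and 21 below, with a median of 0.01, against 48.1% of all genes above 0 and a median of -0.00.

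**Figure D1:**
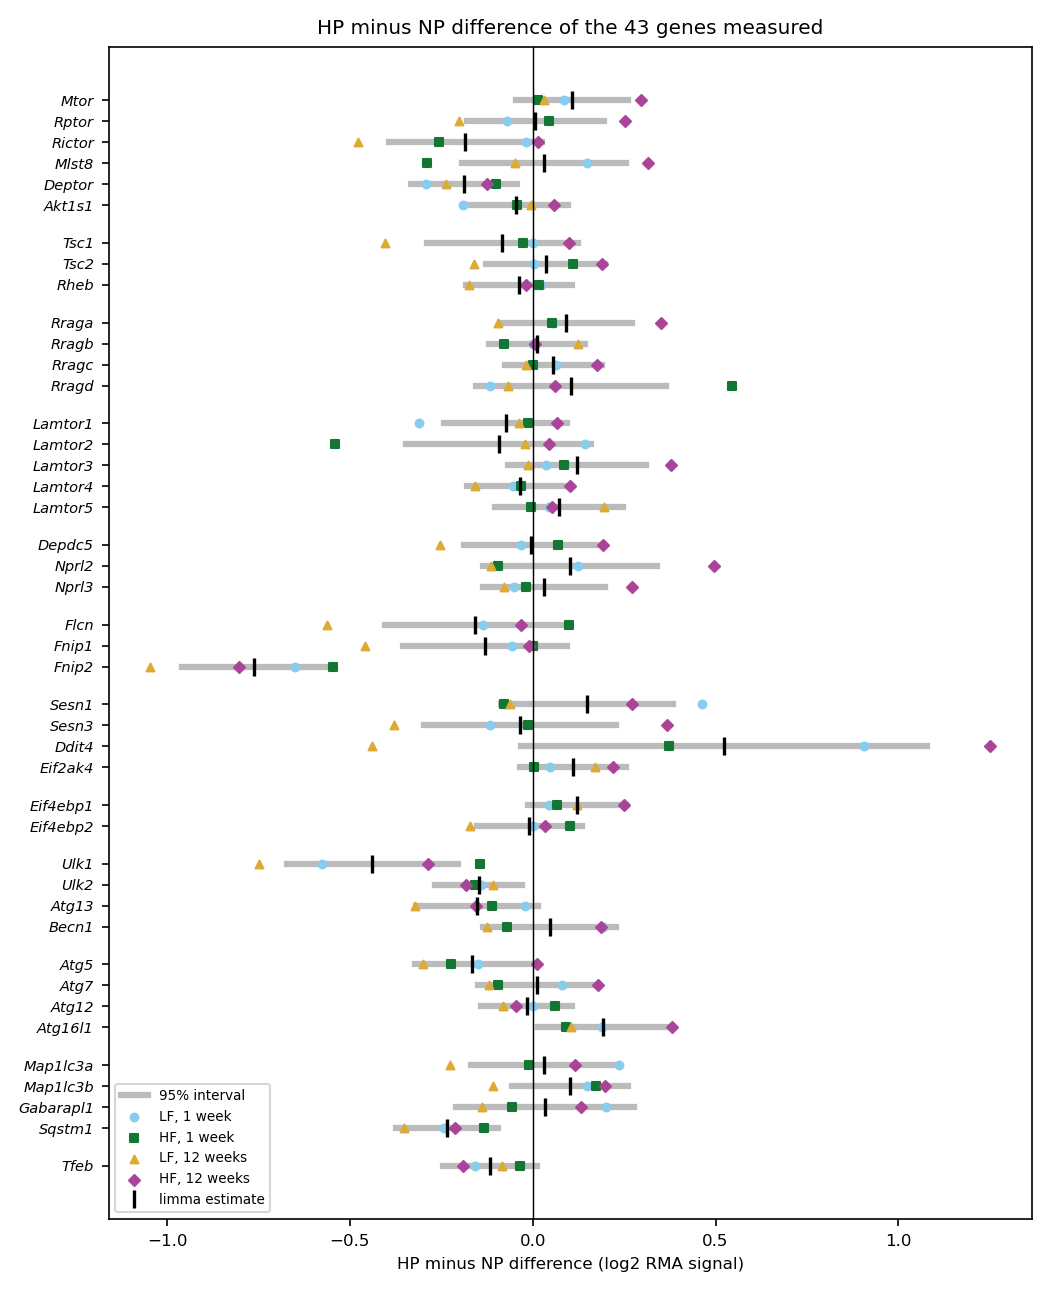
Difference between HP and NP pools for the 43 genes, in log2 units on the horizontal axis, grouped by role. Black ticks are limma estimates from 8 diet pools, grey bars their 95% intervals, and coloured symbols the differences between the HP and the NP pool of 1 fat level and week. Fnip2 sits at -0.76, whereas the other 42 genes lie between -0.44 and 0.52.

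Promoter sequences are shown for the genes that carried these differences, so that the letters next to each start site can be read beside the values. They are RefSeq windows of 300 bases on GRCm38.p6, from 250 bases before to 50 bases after the start, written on the strand of the gene. The first 3 hold the genes with the lowest unadjusted p in the protein comparison, and the fourth, Atg5, holds an E-box, CACGTG, in capitals. CACGTG is a core letter sequence bound by TFEB and its relatives and by other basic helix-loop-helix factors. The Fnip2 window is chr3:79567630-79567929 on the minus strand, that of Ulk1 is chr5:110810032-110810331 on the minus strand, that of Sqstm1 is chr11:50210771-50211070 on the minus strand and that of Atg5 is chr10:44268089-44268388 on the plus strand.
Fnip2: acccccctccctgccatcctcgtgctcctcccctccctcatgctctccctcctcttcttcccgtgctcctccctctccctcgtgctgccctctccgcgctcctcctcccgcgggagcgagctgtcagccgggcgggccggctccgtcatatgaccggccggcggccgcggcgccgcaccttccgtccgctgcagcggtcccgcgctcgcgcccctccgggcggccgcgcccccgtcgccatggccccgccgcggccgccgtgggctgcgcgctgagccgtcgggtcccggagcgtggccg
Ulk1: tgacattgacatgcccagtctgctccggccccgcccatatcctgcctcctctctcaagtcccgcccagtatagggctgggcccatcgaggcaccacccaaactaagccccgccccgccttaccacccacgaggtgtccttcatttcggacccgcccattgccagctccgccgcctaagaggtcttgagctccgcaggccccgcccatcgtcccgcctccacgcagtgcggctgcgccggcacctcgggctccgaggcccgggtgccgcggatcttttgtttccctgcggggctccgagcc
Sqstm1: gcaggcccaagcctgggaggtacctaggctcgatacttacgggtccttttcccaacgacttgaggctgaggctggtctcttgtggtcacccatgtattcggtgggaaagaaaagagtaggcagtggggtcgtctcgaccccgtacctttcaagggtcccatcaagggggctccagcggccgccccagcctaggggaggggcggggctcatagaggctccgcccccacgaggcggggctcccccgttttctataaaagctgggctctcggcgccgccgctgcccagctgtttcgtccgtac
Atg5: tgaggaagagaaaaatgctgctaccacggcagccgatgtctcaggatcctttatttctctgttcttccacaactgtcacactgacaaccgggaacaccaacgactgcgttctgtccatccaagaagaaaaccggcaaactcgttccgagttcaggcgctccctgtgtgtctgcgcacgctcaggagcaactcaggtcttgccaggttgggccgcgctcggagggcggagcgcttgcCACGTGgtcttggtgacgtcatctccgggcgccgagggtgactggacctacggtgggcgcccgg

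The first letter of the Atg5 E-box lay 14 bases before the start. CACGTG, which reads the same on both strands, was in none of the windows of Fnip2, Ulk1, Ulk2 and Sqstm1, which says only that these letters are not in these windows. Over the module it was found in 8 of 41 windows of 37 listed genes, or 19.5%, against 7.15% of all 32851 windows and 8.24% of the 19177 windows of tested genes. Within 150 bases before the start, the shares were 19.5% of the module, 4.3% of all windows and 5.07% of those of tested genes. The longer CLEAR palindrome, the E-box with 2 further bases on each side, was in no window of the module and in 0.326% of all windows. TGATGNAAN, the element bound by ATF4 with its partners, was searched on both strands and found in 1 window, that of Lamtor4. This is 2.44% against 3.95% of all windows and 3.06% of those of tested genes. Within 150 bases before the start, the shares were 2.44% of the module, 2.22% of all windows and 1.54% of those of tested genes.

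The E-box sites are given as 26 bases each, on the strand of the gene, with CACGTG in capitals. The 8 genes below were listed because their windows hold it, after these matches were known. Where a window holds several, the one nearest to the start is shown.
Atg5: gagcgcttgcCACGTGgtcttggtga
Atg7: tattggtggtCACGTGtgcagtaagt
Fnip1: agtttgctgcCACGTGatacggctcg
Lamtor1: gccttcctatCACGTGccgcgggtcc
Lamtor4: aacagcttttCACGTGtaaaccaaac
Rheb: cgcgcgcggtCACGTGggtgtgttgt
Rragb: ggcaggttccCACGTGatcctggcct
Rragc: tgattccgggCACGTGatagtaccac

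Of these 8 genes, 1, Atg5, was among the members with an unadjusted p under 0.05 in the protein comparison. The other 7 had differences between HP and NP pools from -0.13 in Fnip1 to 0.06 in Rragc. Deptor and Atg16l1, also under 0.05 in that comparison, had no promoter window and were not searched.

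The folliculin complex is a GTPase-activating complex made of folliculin and one of its binding partners, Fnip1 or Fnip2. It acts on Rag C and D at the lysosome. Fnip2 was 7.86 in the LF-NP and 7.61 in the HF-NP pool after 1 week, and 8.32 and 8.03 in the same diets after 12 weeks. The HP pools were at 7.21 in LF-HP and 7.06 in HF-HP after 1 week, and at 7.28 and 7.23 after 12 weeks, and the reference pool was at 7.68. Each HP pool was thus below every NP pool and below the reference. The means were 7.19 ± 0.094 in the HP and 7.95 ± 0.30 in the NP pools (SD, n = 4 pools each). Fnip2 mRNA fell by 0.76 (SE 0.085, 95% interval -0.96 to -0.56), with a limma adjusted p of 0.022, and on a linear scale it fell by 41.0%. This call was narrow. The adjusted p passed 0.05 on leaving out any 1 of 6 pools and stayed below it without HF-HP of week 1 or LF-HP of week 12, over a range of 0.0488 to 0.123. It was 0.0794 without LF-NP, 0.0907 without LF-HP and 0.0696 without HF-NP of week 1, and 0.0731 without LF-NP, 0.123 without HF-NP and 0.0945 without HF-HP of week 12. The difference itself stayed between -0.82 and -0.69 in these fits.

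The partners of Fnip2 did not pass the test. Flcn was 7.28, 7.07, 7.45 and 7.21 in the LF-NP and HF-NP pools of week 1 and of week 12, and 7.14, 7.17, 6.88 and 7.17 in the matching HP pools. The LF-HP pool of week 12 was the lowest and the groups overlapped, with a difference of -0.16 (SE 0.11, limma adjusted p = 0.706). Fnip1 differed by -0.13 (interval -0.36 to 0.09), and its lowest value, 7.99, came from the same LF-HP pool of week 12, while the other 3 HP pools were at 8.43 to 8.44.

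**Figure D2:**
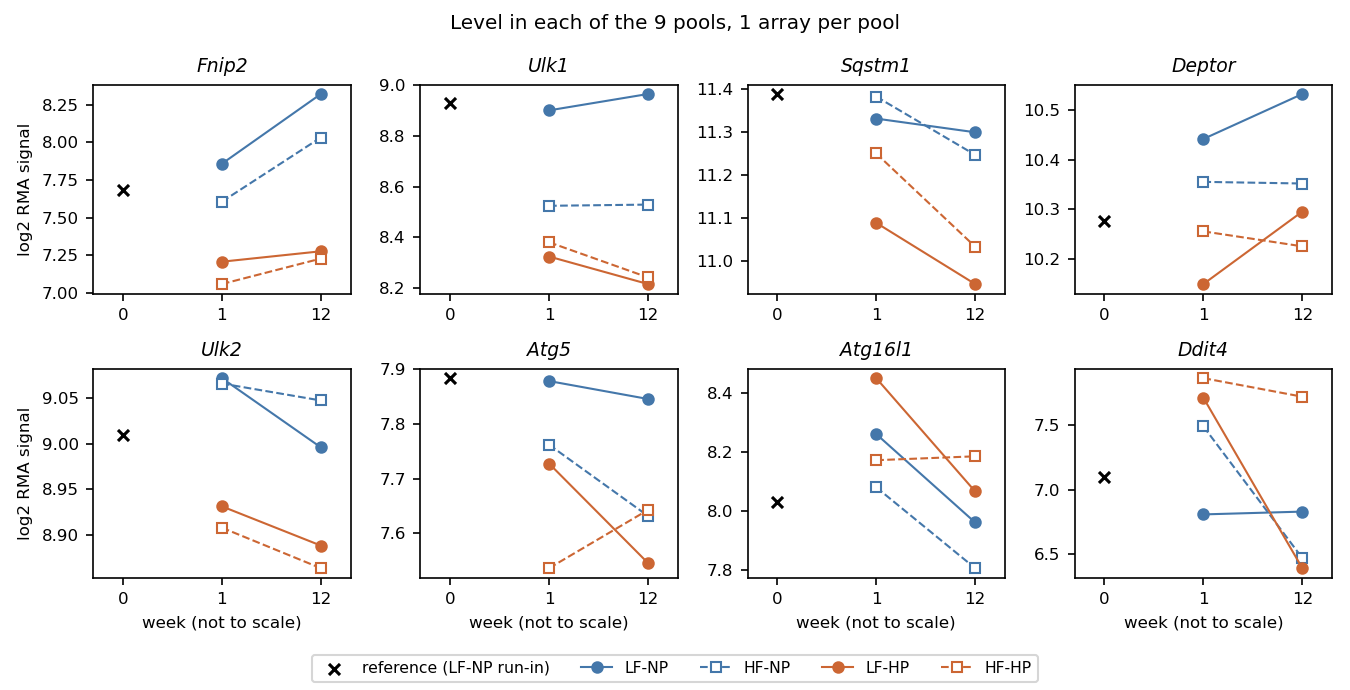
Log2 RMA signal in each of the 9 pools for 8 genes, with week on the horizontal axis, blue for NP, orange for HP, filled circles for LF, open squares for HF and a cross for the reference. In Fnip2 the 4 HP pools, at 7.06 to 7.28, lie below the reference and the 4 NP pools, and in Ddit4 the LF-HP pool of week 12 lies apart from the other HP pools.

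The kinases that start autophagy, Ulk1 and Ulk2, were lower in the HP pools of both fat levels and both weeks. Ulk1 was 8.90 and 8.96 in the LF-NP pools of week 1 and week 12 and 8.52 and 8.53 in the HF-NP pools. The HP pools were at 8.32 and 8.22 on LF and at 8.38 and 8.24 on HF, and the reference was at 8.93. The HP and NP pools did not overlap, and the LF-NP pools and the reference, which share a diet, were the 3 highest values. The difference was -0.44 (SE 0.10, 95% interval -0.67 to -0.21), with a limma adjusted p of 0.163, so the threshold was not passed. Ulk2, a close relative of Ulk1, was 9.07, 9.07, 9.00 and 9.05 in the LF-NP and HF-NP pools of week 1 and of week 12, and 8.93, 8.91, 8.89 and 8.86 in the matching HP pools. The groups were narrow and apart, at 8.90 ± 0.029 and 9.05 ± 0.034 (SD, n = 4 pools each), with a difference of -0.15 (SE 0.051) and a limma adjusted p of 0.353.

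Atg13, the adaptor of the ULK1 complex, was 9.42, 9.51, 9.47 and 9.61 in the same order of NP pools and 9.40, 9.40, 9.15 and 9.46 in the HP pools. All 4 matched differences were below 0, but the groups overlapped, and the mean difference was -0.15 (SE 0.072, limma adjusted p = 0.534). Becn1, a subunit of the lipid kinase complex that acts after ULK1, was between 7.69 and 7.98 in the diet pools with a difference of 0.05 (interval -0.14 to 0.23).

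The genes that conjugate LC3 to the growing membrane went in different directions. Atg5, which forms a conjugate with Atg12, was 7.88, 7.76, 7.85 and 7.63 in the LF-NP and HF-NP pools of week 1 and of week 12. The matching HP pools were at 7.73, 7.54, 7.55 and 7.64. In HF at 12 weeks the HP and NP pools were nearly equal, and the mean difference was -0.17 (SE 0.067, limma adjusted p = 0.455). Atg16l1, which places the conjugate on the membrane, was 8.26, 8.08, 7.96 and 7.80 in the NP pools and 8.45, 8.17, 8.07 and 8.18 in the HP pools. Each HP pool was above its matched NP pool although the groups overlapped, with a difference of 0.19 (SE 0.076, limma adjusted p = 0.443). Atg7 and Atg12 had differences of 0.01 and -0.02, with intervals from -0.15 to 0.17 and from -0.14 to 0.11.

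Sqstm1, or p62, is a receptor that carries ubiquitin-tagged cargo into autophagosomes and is itself degraded there. Its mRNA was 11.33, 11.38, 11.30 and 11.25 in the LF-NP and HF-NP pools of week 1 and of week 12. The matching HP pools were at 11.09, 11.25, 10.95 and 11.03, and the reference was at 11.39, the highest value of the 9. The HF-HP pool of week 1 lay within 0.01 of the HF-NP pool of week 12, and no other HP pool reached an NP pool. The difference was -0.23 (SE 0.060, 95% interval -0.37 to -0.10), with a limma adjusted p of 0.218. The LC3 family genes Map1lc3a, Map1lc3b and Gabarapl1, which coat the autophagosome, had differences of 0.03, 0.10 and 0.03, and none had an unadjusted p under 0.05.

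mTOR complex subunits were divided in sign, 3 above and 3 below 0. Deptor, a subunit that inhibits mTOR, was 10.44, 10.36, 10.53 and 10.35 in the NP pools in the same order and 10.15, 10.26, 10.30 and 10.23 in the HP pools. The groups did not overlap, but the reference pool, on the LF-NP diet, was at 10.28, among the HP pools. The difference was -0.19 (SE 0.062, limma adjusted p = 0.336). Mtor, the kinase itself, was 8.54, 8.54, 8.46 and 8.35 in the NP pools and 8.63, 8.56, 8.49 and 8.64 in the HP pools. Each HP pool was above its matched NP pool, and the difference was 0.11 (interval -0.04 to 0.26, limma adjusted p = 0.671). Rictor, which defines mTORC2, differed by -0.18 (interval -0.39 to 0.03), and Rptor, which defines mTORC1, by 0.01 (interval -0.18 to 0.19). Mlst8, a subunit of both complexes, differed by 0.03, and Akt1s1, or PRAS40, an inhibitor of mTORC1, by -0.04.

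None of the switches upstream of mTORC1 passed the test. Rheb was 8.64, 8.63, 8.61 and 8.65 in the NP pools and 8.66, 8.65, 8.44 and 8.63 in the HP pools, where the LF-HP pool of week 12 stood 0.19 below the next lowest HP pool. Its difference was -0.04 (interval -0.18 to 0.11, limma adjusted p = 0.901). Tsc1 and Tsc2, which restrain Rheb, differed by -0.08 and 0.04. The 4 Rag GTPase genes all had differences above 0, from 0.01 in Rragb to 0.10 in Rragd, the 5 Ragulator genes ran from -0.09 in Lamtor2 to 0.12 in Lamtor3, and the 3 GATOR1 genes from -0.01 in Depdc5 to 0.10 in Nprl2. None of these 15 genes had an unadjusted p under 0.05. Rragb lay near the bottom of the scale, at a mean of 3.16, and 5 of the 9 pools held the same value. The matched differences of Rragd were -0.12 on LF and 0.54 on HF after 1 week, and -0.07 and 0.06 after 12 weeks.

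Sensors and brakes of the pathway held the most variable member. Ddit4, or REDD1, is a stress- and hormone-induced inhibitor of mTORC1, and it was singled out after its values were seen. It was 6.81, 7.49, 6.83 and 6.47 in the LF-NP and HF-NP pools of week 1 and of week 12, 7.72, 7.87, 6.39 and 7.72 in the matching HP pools and 7.10 in the reference. The LF-HP pool of week 12 was the lowest of all 9 and the other 3 HP pools were the 3 highest, a range of 1.47 over the 9 pools against 1.26 for Fnip2. The difference of 0.52 (SE 0.24, interval -0.03 to 1.08) did not pass the test, with a limma adjusted p of 0.522. Eif2ak4, or GCN2, the kinase that senses uncharged transfer RNA, was 6.73, 6.78, 6.56 and 6.46 in the NP pools and 6.77, 6.79, 6.73 and 6.68 in the HP pools. All 4 matched differences were above 0, the mean difference was 0.11 (interval -0.04 to 0.26) and the limma adjusted p was 0.647. The sestrin gene Sesn1 differed by 0.15 (interval -0.09 to 0.38) and Sesn3 by -0.03 (interval -0.30 to 0.23).

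The translation repressors that mTORC1 phosphorylates, 4E-BP1 and 4E-BP2, are encoded by Eif4ebp1 and Eif4ebp2. Eif4ebp1 was at 8.70 to 8.82 in the NP pools and 8.82 to 8.95 in the HP pools. Each HP pool was above its matched NP pool, with a difference of 0.12 (interval -0.01 to 0.25, limma adjusted p = 0.552). Eif4ebp2 differed by -0.01 (interval -0.15 to 0.14).

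Tfeb, the transcription factor of lysosome and autophagy genes, was 7.23, 7.07, 7.15 and 7.07 in the NP pools and 7.07, 7.04, 7.07 and 6.88 in the HP pools. The difference was -0.12 (interval -0.25 to 0.01, limma adjusted p = 0.542). Across the module, all 4 matched differences were below 0 in 7 members, namely Deptor, Fnip2, Ulk1, Ulk2, Atg13, Sqstm1 and Tfeb, and above 0 in 4, Mtor, Eif2ak4, Eif4ebp1 and Atg16l1. Over all genes tested, 8.11% were below 0 in all 4 and 6.01% above.

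Fat level gave no member beyond the threshold, at an adjusted p or at an unadjusted p under 0.05. Of all genes tested, none passed at the adjusted level and 3.33% had an unadjusted p under 0.05. The smallest limma adjusted p of the module was 0.999. The 3 members with the smallest unadjusted p were Fnip2, which was 0.18 lower on the log2 scale in the HF pools, Tfeb, with a difference of -0.12, and Atg13, with a difference of 0.14.

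The differences between HP and NP pools were compared between the fat levels by the protein by fat interaction. No member passed the adjusted threshold (smallest limma adjusted p = 0.674), as did no gene of the 19938, and Ulk1 and Sesn3 had an unadjusted p under 0.05, 4.65% of the members against 7.02% of all genes. For Ulk1 the mean difference was -0.66 on LF and -0.22 on HF, an interaction of 0.45 (SE 0.12, limma adjusted p = 0.674). Sesn3, a sestrin that restrains mTORC1 through GATOR2, was 7.87, 7.79, 7.78 and 7.51 in the LF-NP and HF-NP pools of week 1 and of week 12, and 7.75, 7.78, 7.40 and 7.88 in the matching HP pools. Its difference was -0.25 on LF and 0.18 on HF, an interaction of 0.42 (SE 0.17, limma adjusted p = 0.706). Flcn had the third smallest p, with an interaction of 0.38 (SE 0.17, limma adjusted p = 0.717).

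The sign of the interaction was more one-sided in the module than over all genes. In 37 of 43 members, or 86%, the difference between HP and NP was higher on HF than on LF, while 56.6% of all genes had this sign, and the median interaction was 0.12 against 0.03. With 1 pool left out the count ran from 30 to 38. The median was 0.06 without LF-HP of week 12, 0.08 without HF-HP of week 12 and 0.20 without LF-HP of week 1, and 0.09 to 0.18 without any other 1 pool. This lean was not particular to the module. In the lists of related genes described below, 13 of 16 other sensor genes, 19 of 25 other core autophagy genes and 15 of 20 lysosome genes had this sign. So did 7 of 9 AMPK and 10 of 13 eIF2 genes, but only 4 of 10 autophagy receptors and 4 of 9 translation genes. The Kupffer cell markers given above had the same sign as most members, with matched differences that were higher on HF than on LF in both weeks. So had 5 sinusoidal endothelium markers, at 0.02 on LF and 0.16 on HF after 1 week and -0.25 and 0.19 after 12 weeks, and 5 stellate cell markers, at -0.06 and 0.08 and at -0.06 and 0.11. The matched differences of the lymphocyte sums given above were also higher on HF than on LF in both weeks, though all were below 0. Hepatocyte markers had the opposite sign, at 0.07 on LF and -0.05 on HF after 1 week and 0.08 and -0.08 after 12 weeks. Cholangiocyte markers were at 0.01 and -0.04 after 1 week and at -0.06 on both after 12 weeks. Adipocyte markers were at 0.04 and 0.15 and then at 0.21 and -0.44. The part of these markers in this contrast was not tested. The median matched difference was 0 on LF and -0.01 on HF after 1 week, and -0.12 on LF and 0.10 on HF after 12 weeks, and the change of this contrast between the weeks was not tested. In that week the LF-HP pool held the lowest of the 9 values in 14 members and the highest in none, and the HF-NP pool held the lowest in 13. This is 32.6% and 30.2% of the members, against 16.4% and 14.7% of all genes. These are single pools, and members share them, so the counts are a description without a test.

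**Figure D3:**
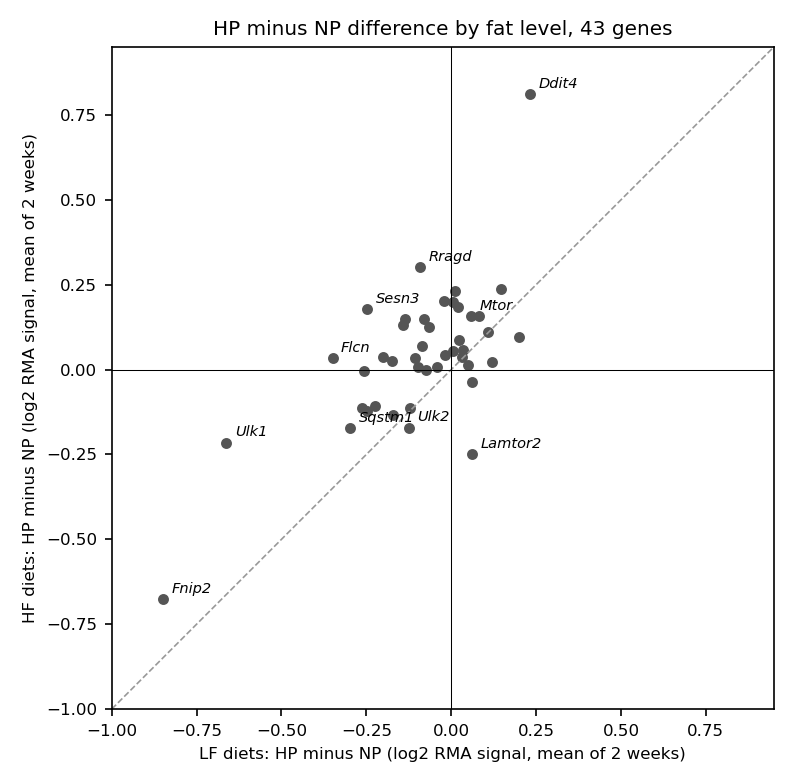
Mean difference between HP and NP pools on the low-fat diets (horizontal axis) and on the high-fat diets (vertical axis), log2 units, 1 point per gene. The line marks equal differences, and 37 of the 43 points lie above it.

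Duration gave no member beyond the adjusted threshold (smallest limma adjusted p = 0.568), while 0.00502% of all genes passed. By the labels the mice were 13 weeks old in the first case and 22 weeks in the second, so duration and age cannot be told apart. At an unadjusted p under 0.05, Fnip2 was higher and Lamtor5, Ddit4, Eif2ak4, Atg7 and Atg16l1 were lower after 12 weeks than after 1 week, 14% of the members against 7.71% of all genes. This count of 6 was 2 without HF-NP of week 1, HF-HP of week 1 or HF-NP of week 12, 3 without LF-HP of either week, 4 without LF-NP of week 1, 6 without LF-NP of week 12 and 10 without HF-HP of week 12. Fnip2 differed by 0.28 (SE 0.085) and Atg16l1 by -0.24 (SE 0.076). Lamtor5, a Ragulator subunit, was 7.72, 7.76, 7.76 and 7.76 in the LF-NP, HF-NP, LF-HP and HF-HP pools of week 1 and 7.57, 7.39, 7.77 and 7.45 in those of week 12. The week 1 pools lay together, and 3 of the 4 week 12 pools lay below them, with a difference of -0.21 (SE 0.075). Atg7, the E1-like enzyme of both conjugation steps, was the only member whose pools of both weeks did not overlap, at 8.82 to 8.98 after 1 week and 8.63 to 8.81 after 12 weeks, and 2.79% of all genes did not overlap. Below 0 were 33 of 43 members, or 76.7%, against 54.6% of all genes, with a median of -0.06 against -0.01. The median was -0.03 without LF-HP, -0.10 without LF-NP and -0.10 without HF-HP of week 12. Above 0 were 10 members, and this count was 4 when HF-HP of week 12 was left out and 15 when LF-HP of week 12 was. The lean below 0 was not particular to the module. In the lists of related genes described below, 20 of 25 other core autophagy genes and 13 of 20 lysosome genes were below 0. So were 7 of 10 autophagy receptors, 7 of 9 AMPK and 12 of 13 eIF2 genes. Among other sensor genes it was 9 of 16, and among translation genes 5 of 9.

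The protein by week interaction gave no member beyond the adjusted threshold (smallest limma adjusted p = 1) and 1 at an unadjusted p under 0.05, against 2.62% of all genes. This was Fnip2, whose difference between HP and NP was -0.65 on LF and -0.55 on HF after 1 week, and -1.05 and -0.80 after 12 weeks. The interaction was -0.33 (SE 0.13, limma adjusted p = 1). Eif2ak4 and Flcn, with the next smallest p, had interactions of 0.17 and -0.28.

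Genes around the module were read from 7 lists of 102 measured genes. These hold other nutrient sensors, other autophagy genes, autophagy receptors and lysosome genes, the last with the transcription factors Tfe3 and Mitf. They also hold AMPK subunits together with Stk11, Strada and Cab39, eIF2 kinases with related genes, and translation factors. In the protein comparison 1 of the 102 passed the adjusted threshold, against 0.441% of all genes. This was Ctsl, or cathepsin L, a lysosomal protease. It was 11.35, 11.29, 11.22 and 11.11 in the LF-NP and HF-NP pools of week 1 and of week 12, and 11.72, 11.99, 11.57 and 11.71 in the matching HP pools. Every HP pool was above every NP pool and above the reference at 11.32. Ctsl rose by 0.50 (SE 0.076) with a limma adjusted p of 0.0499, and this call was lost on leaving out any 1 of the 8 pools.

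Of the 20 lysosome genes, 17 had a difference above 0, with a median of 0.06, and 4 were higher and 1 lower at an unadjusted p under 0.05, that is 25% of the list against 10.3% of all genes in either direction. The second was Mcoln1, the calcium channel of the lysosome membrane, at 10.36 to 10.52 in the HP pools and 10.18 to 10.31 in the NP pools, a difference of 0.21 (SE 0.063, limma adjusted p = 0.282). The 25 other core autophagy genes had the opposite majority, with 18 below 0 and a median of -0.06. Among them Wipi1, which binds the lipid of the growing membrane, differed by -0.30 (SE 0.075, limma adjusted p = 0.216), and Atg101, a partner of Atg13, by -0.38 (SE 0.12, limma adjusted p = 0.293). Over all genes, the median difference was -0.00 and 51.9% were below 0. The contrast between these lists did not hold in every match. After 1 week the median matched difference of the lysosome genes was 0.04 on LF and 0.16 on HF. After 12 weeks it was -0.06 and 0.19. For the other core autophagy genes it was -0.04 on both after 1 week, and -0.21 on LF and 0.04 on HF after 12 weeks.

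The largest difference in the 7 lists was that of Retreg1, a receptor for autophagy of the endoplasmic reticulum. It was 7.63, 7.82, 7.14 and 7.15 in the LF-NP and HF-NP pools of week 1 and of week 12, and 8.80, 7.98, 7.91 and 7.82 in the matching HP pools. The LF-HP pool of week 1 was the highest, and the HF-HP pool of week 12 equalled the HF-NP pool of week 1 to 2 decimals. The difference was 0.69 (SE 0.15, limma adjusted p = 0.147). Stbd1, a receptor for glycogen, was at 6.87 to 7.13 in the HP pools and 7.16 to 7.33 in the NP pools. The HP pools lay below with no overlap, and the difference was -0.30 (SE 0.067, limma adjusted p = 0.153).

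The remaining lists had no gene near the threshold. In the AMPK list 7 of 9 genes were below 0, led in p by Strada at 0.27 and Prkaa1, a catalytic subunit, at -0.11. Among 13 genes of the eIF2 kinases and eIF2B, Atf4, the transcription factor translated when eIF2 is phosphorylated, had the smallest p with a difference of 0.15 (limma adjusted p = 0.475), followed by Eif2ak2, or PKR, at -0.17. Of 9 translation genes 7 were below 0, with Eef2k, the kinase of elongation factor 2, and Pdcd4, an inhibitor of eIF4A, both at -0.18. Among 16 other sensor genes 9 were above 0, and Prr5 of mTORC2 and Seh1l of GATOR2 had the smallest p at -0.21 and 0.09.

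**Figure D4:**
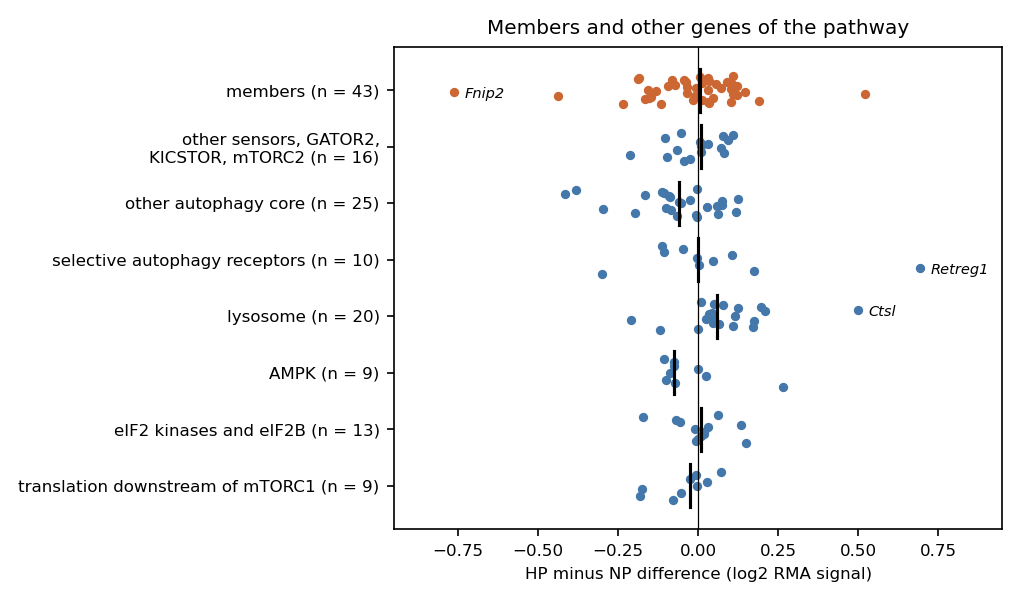
Differences between HP and NP pools, log2 units, for the genes of the module and of the 7 lists around it, 1 point per gene, with black ticks at the list medians. Lysosome genes have a median of 0.06 and other core autophagy genes one of -0.06.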

How the data were processed

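Liver RNA of 9 pools, each of 5 mice, was measured on 1 array per pool. The deposited values are log2 intensities that the authors normalised by RMA. Their methods describe probes regrouped by Entrez Gene, but the table is keyed by the transcript clusters of the array, of which 35556 are listed: 21789 name 1 gene symbol in the platform annotation, 1621 several and 12146 none. Only the first were used, which gave 19938 genes. A gene with several probe sets (999 genes, 3 members) was represented by the one with the highest mean.

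Differences were estimated with limma 3.58.1 in R 4.3.3 on the 8 diet pools with protein, fat and week as terms (4 residual and 3.52 prior degrees of freedom), and interactions with 1 further term (3 residual degrees of freedom). P-values were adjusted by Benjamini-Hochberg over all 19938 genes, with a threshold of 0.05. Pools of differing fat and week serve as the replicates of a protein level, so p-values measure the spread between such pools and not between mice. The reference pool entered no main fit. The number of arrays limits the precision: the standard error of a member's difference was 0.051 to 0.238, with a median of 0.0752. On simulated data (20 runs, 19938 genes), the protein comparison called 5.2% of genes changed by 0.25, 56.4% at 0.5 and 93.8% at 1. Of the genes called there, 4.01% were false on average. The simulated noise was drawn for each gene alone, with no effect of fat or week and no shift shared within a pool. These rates hold for that setting and need not hold for the real pools.

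Values are given pool by pool for members past the adjusted threshold in any of the 5 tests, those with an unadjusted p under 0.05 in the protein comparison, the 3 smallest p of every other test, and Mtor, Rheb, Ulk1 and Tfeb. Of the lists around the module, genes past the threshold and the 2 smallest p of each list are named. The members and lists were chosen with earlier results of these data known. Alternatives were a level filter, an intensity trend, array weights, centring, a robust prior, mean probe sets, no covariates, a block on fat level and week, the reference as a further pool, subsets of the pools and leaving out each pool. Promoters came from RefSeq windows on GRCm38.p6 (37 of 44 genes).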

Additional observations from a re-analysis of the deposited data

Results flagged for a closer look

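In 13 of 86 groups of 4 pools, 1 pool stood apart from the other 3 by more than Dixon's 95% limit. For 4 values drawn from 1 distribution, that limit is passed in about 1 group in 20. Here the pools differ in fat level and week by design, and all genes share them. The count of 13 therefore cannot be read against that rate.

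Among the HP pools, the LF-HP pool of week 12 was low in 5 genes. It was at 7.26 in Tsc1, against 7.61 to 7.64 in the others, at 8.44 in Rheb (others 8.63 to 8.66), at 6.88 in Flcn (others 7.14 to 7.17), at 7.99 in Fnip1 (others 8.43 to 8.44) and at 6.39 in Ddit4 (others 7.72 to 7.87). The HF-HP pool of week 12 stood apart in 3 genes. It was higher in Rragc, at 7.71 (others 7.59), and in Eif4ebp2, at 9.93 (others 9.86), and lower in Lamtor5, at 7.45 (others 7.76 to 7.77).

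Among the NP pools, the HF-NP pool of week 12 was at 7.84 in Rptor (others 8.09 to 8.11), at 7.32 in Nprl2 (others 7.67 to 7.72) and at 7.09 in Atg12 (others 7.07). The HF-NP pool of week 1 was at 5.17 in Rragd (others 5.27), and the LF-NP pool of week 1 was at 7.83 in Lamtor1 (others 7.68 to 7.69). In several of these genes the other pools held nearly one value, so a small gap was enough. Exactly the same value in 3 or more pools was found in 9 members, or 20.9%, and in 39.1% of all genes. The part of such ties in these 13 gaps was not tested.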

How the results depend on the processing

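The count of members past the threshold in the protein comparison, 1, fell to 0 with protein alone and no covariates, with the reference as a further LF-NP pool, and in the 1 week, 12 week, LF or HF pools alone. The limma adjusted p of Fnip2 was then 0.063, 0.0626, 0.767, 1, 0.589 and 0.825; the last 4 fits have fewer pools. Leaving out 1 pool gave 0 to 1, and the other alternatives gave 1, with an adjusted p of Fnip2 of 0.0494 when fat level and week formed a block. The difference of Fnip2 stayed between -0.93 and -0.60 throughout. Counts for fat, week and both interactions were 0 in every alternative run.

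The pools of 4 members did not overlap. The count was 5 with centred arrays, 3 with the reference added, and 4 to 7 on leaving out 1 pool, with 7 without the LF-HP or without the HF-NP pool of week 12. The count of the 7 lists, 1, was 0 with no covariates, with the block, with the reference and in the 4 subsets, and 0 to 0 on leaving out 1 pool. Members above 0 numbered 10 for week (4 to 15 on leaving out 1 pool) and 37 for the protein by fat interaction (30 to 38, and 34 with centred arrays). Of 43 members, 22 changed the sign of their protein difference in at least 1 alternative and 21 did not. These alternatives for the lists, the pools and the signs were chosen after seeing the data. The replicate numbers of the labels are 1 in each group and pair no pools; the block pairs them by fat level and week.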

Other observations

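Lamtor1, Lamtor3 and Map1lc3b each have 2 probe sets that name them alone. The brighter one, which was used, sits among identifiers whose 20 neighbours name genes of chromosomes 19, 7 and 14, whereas the genes lie on chromosomes 7, 3 and 8. For the other probe set of each gene, all 20 neighbours name genes of the gene's own chromosome. The differences between HP and NP pools by the brighter and the other probe set were -0.07 and -0.00 for Lamtor1, 0.12 and 0.10 for Lamtor3, and 0.10 and 0.09 for Map1lc3b. Values of these 3 genes are therefore uncertain as to locus.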
